A study of Homo sapiens with 4 samples.

Results

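The genes of collagen chains and of the enzymes and chaperone that modify them were examined in the MHCC-LM3 line, established from a human hepatocellular carcinoma. Members were taken by a rule on gene symbols, and the choice was made with earlier results of these data known. The rule covered all numbered collagen chain genes, the prolyl 4-hydroxylase alpha subunits (P4HA), the lysyl hydroxylases (PLOD), the lysyl oxidases (LOX and LOXL) and the chaperone SERPINH1. Of the 22465 genes with a row of their own on the array, 53 met the rule, 41 collagen chains and 12 enzymes or chaperones. COL3A1 and COL26A1 share their rows with another symbol and COL17A1 has no row under its symbol here, so these 3 chains were not analysed.

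Both groups were cells of the same line. In the first group they were given zerumbone, a sesquiterpene of ginger plants, at 50 µM, and in the second the solvent DMSO, in each case for 24 h. There were 2 arrays per group, and the group of each was read from its source label. The labels give no replicate numbers, so arrays were numbered within each group in the order of deposit: titles KG-7 and KG-8 are DMSO replicates 1 and 2, and KG-10 and KG-9 are zerumbone replicates 1 and 2. The labels name no separate cultures, so the p-values reflect the spread among these arrays alone, which may be technical, and the small number of arrays limits the precision.

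Collagens are triple-helical proteins of the extracellular matrix. Inside the endoplasmic reticulum their chains are hydroxylated on proline by prolyl 4-hydroxylases, which lets the helix hold at body temperature, and on lysine by lysyl hydroxylases, which prepares the chains for sugars and cross-links. SERPINH1, also called HSP47, is a chaperone that binds the folded procollagen helix, and after secretion lysyl oxidases cross-link collagen and elastin. In liver, most fibrillar collagen is made by stellate cells and fibroblasts, and tumour cells can supply modifying enzymes to the matrix around them.

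Values are the deposited log2 intensities, and each difference is zerumbone minus DMSO in log2 units. Background level was set on each array at the 95th percentile of the 23 antigenomic rows, whose probes match no human sequence. That level was 4.54 and 5.10 on the DMSO arrays and 4.74 and 5.03 on the zerumbone arrays, and a gene is called at background in a group only where both arrays lay under it. The words rose and fell mark genes with a Benjamini-Hochberg adjusted p under 0.05 in limma, adjusted over all 22465 genes. Each SE and confidence interval is limma's moderated one, which draws on the spread of all genes and not only on the arrays of that gene. By that rule 36.0% of all genes passed, 18.4% higher and 17.7% lower. Of the 10349 genes above background level on both arrays of at least 1 group, 67.4% passed, 32.9% higher and 34.5% lower.

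Most collagen chains were not detected in these cells. Of 41 chains, 34 were at background level in both groups, 3 more (COL4A5, COL18A1 and COL27A1) were above it on only 1 array of a group, and 4 were above it on both arrays of a group. These 4 were COL5A2, COL6A1, COL6A2 and COL6A3. Of the 12 enzymes and chaperones, 8 were above background in the same sense and 4 (P4HA3, LOX, LOXL3 and LOXL4) were at background level in both groups.

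Of the 12 members above background, 6 rose (P4HA1, P4HA2, PLOD2, PLOD3, SERPINH1 and COL6A2), 4 fell (COL5A2, COL6A3, LOXL1 and LOXL2) and 2 did not pass (COL6A1 and PLOD1). Those 10 calls of 12 stand beside 67.4% of all genes above background, so the share called is not a result about collagen genes. By role, 4 of 6 hydroxylases and the chaperone rose, and 2 of 5 oxidases fell. Those counts include members at background level, and of all genes 18.4% were higher and 17.7% lower. Above background, 2 of 2 P4HA genes, 2 of 3 PLOD genes and the chaperone rose, and 2 of 2 oxidases fell. Of all genes above background 32.9% were higher and 34.5% lower, whether the roles differ was not tested, and without DMSO replicate 1 the rises of PLOD3 and SERPINH1 did not pass. The median difference was 0.16 log2 units over all 12 enzymes and chaperones and 0.09 over all 41 chains, against 0.07 over all genes. Of those 41 chains 34 were at background level. Above background the median was 0.56 over 8 enzymes and chaperones (5 rose, 2 fell) and -0.55 over 4 chains (1 rose, 2 fell). Over all genes above background it was 0.0074.

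**Figure D1:**
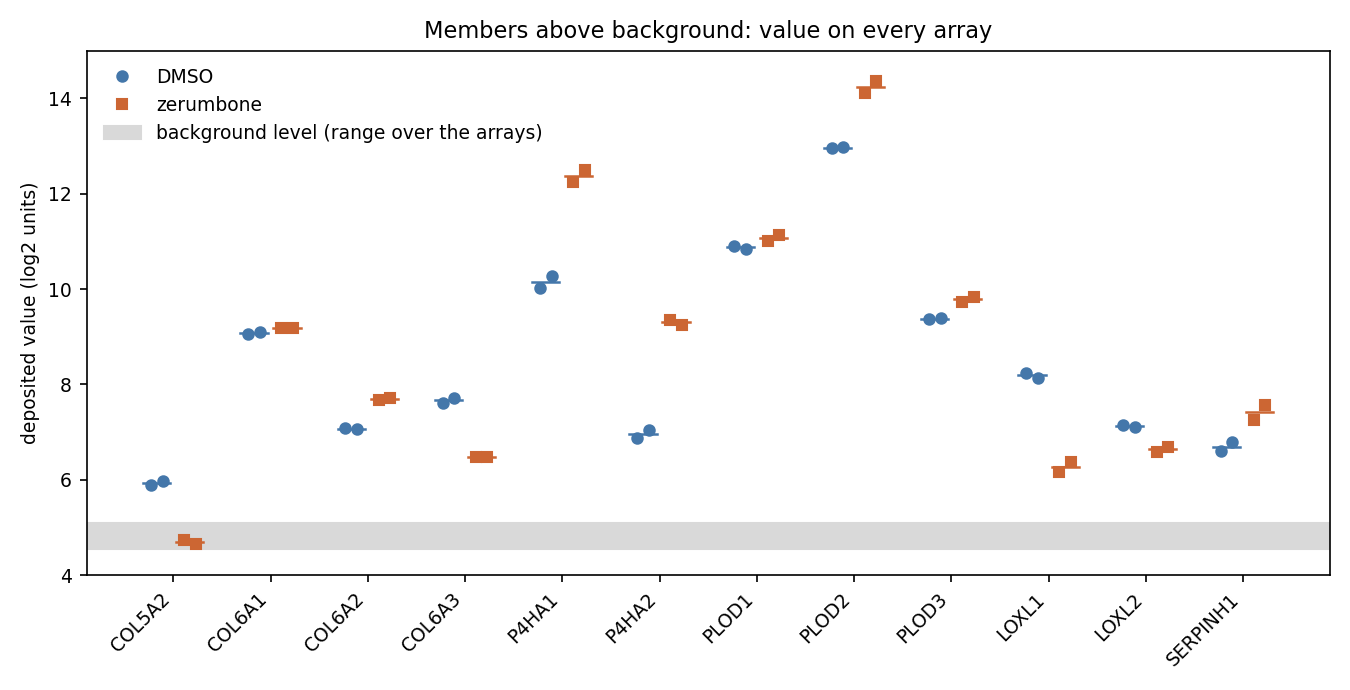
Deposited log2 value (y axis) of the 12 members above background on each of the 4 arrays (circles, DMSO; squares, zerumbone; short lines, group means; grey band, background level over the arrays). P4HA1, P4HA2 and PLOD2 lie higher under zerumbone, LOXL1, COL6A3 and COL5A2 lie lower, and the COL5A2 squares reach the background band.

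The prolyl 4-hydroxylase alpha subunits, which carry the catalytic and peptide-binding sites of the enzyme, had the largest rises among the members. P4HA2 read 6.88 and 7.03 on the DMSO arrays and 9.36 and 9.25 on the zerumbone arrays. The zerumbone arrays were well above both DMSO arrays. The difference was 2.35 ± 0.085 (SE, n = 2 per group; 95% confidence interval 2.13 to 2.57), a 5.10-fold rise with a limma adjusted p of 8e-05. By absolute size it ranked 352 among the 22465 genes.

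P4HA1, the other widely used alpha subunit, read 10.01 and 10.27 under DMSO and 12.25 and 12.49 under zerumbone. Again no zerumbone array overlapped a DMSO array. The difference was 2.23 ± 0.129 (SE, n = 2 per group; interval 1.89 to 2.56), a 4.68-fold rise with a limma adjusted p of 2.38e-04. P4HA3 did not exceed the background level on any array, with 3.75 and 3.66 under DMSO and 3.68 and 3.75 under zerumbone. The beta subunit, P4HB, is a protein disulfide isomerase that completes the tetramer and was named after its values were seen. It read 14.14 and 14.16 under DMSO and 14.10 and 14.06 under zerumbone, with a difference of -0.07 ± 0.060 (SE, n = 2 per group) and a limma adjusted p of 0.418.

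Among the lysyl hydroxylases, PLOD2 changed most. PLOD2, the isoform known for hydroxylating the collagen telopeptides that enter stable cross-links, read 12.96 and 12.98 under DMSO and 14.12 and 14.36 under zerumbone. The groups did not overlap. The rise was 1.27 ± 0.097 (SE, n = 2 per group; interval 1.02 to 1.52), or 2.41-fold, with a limma adjusted p of 5.48e-04.

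PLOD3, which also transfers sugars onto hydroxylysine, read 9.36 and 9.39 under DMSO and 9.74 and 9.84 under zerumbone. The rise of 0.41 ± 0.068 (SE, n = 2 per group) had a limma adjusted p of 0.00802, and the call was lost without DMSO replicate 1 (adjusted p 0.0695) and without DMSO replicate 2 (0.0589). PLOD1, which hydroxylates lysines of the helix, read 10.90 and 10.85 under DMSO and 11.02 and 11.13 under zerumbone. Both zerumbone arrays were the higher ones, but the difference of 0.20 (interval 0.02 to 0.38, before adjustment for the number of genes) did not pass, with a limma adjusted p of 0.0918.

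SERPINH1 read 6.60 and 6.79 under DMSO and 7.25 and 7.57 under zerumbone. The groups did not overlap, although the zerumbone arrays lay further apart than for any other of the 12 members above background. The rise was 0.72 ± 0.135 (SE, n = 2 per group; interval 0.37 to 1.07), or 1.64-fold, with a limma adjusted p of 0.0127. Without DMSO replicate 1 it was 0.62 and the call was lost (adjusted p 0.0861), and with PLOD3 lost as well the enzymes and chaperones that rose went from 5 to 3.

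P4HA1, P4HA2 and PLOD2 are known from other cells as genes induced by hypoxia-inducible factors, and SERPINH1 as a gene of the heat shock response. The 250 bases before the first-listed annotated start of each of these 4 genes are shown because of that known regulation. They are not all of the members that rose. The other members, among them LOXL2, which fell, and PLOD1, which did not pass, were not systematically sorted by known hypoxia regulation. Whether hypoxia-linked members share a direction was not tested. The sequences are from RefSeq, build GRCh38.p14, 5′ to 3′ on the gene's strand, and RefSeq promoter sequences were matched for 9 of the 12 members above background. Capitals mark ACGTG, a form of the core of a hypoxia response element, on either strand. The form GCGTG was not searched and is left unmarked. Capitals also mark the heat shock element pairs GAANNTTC and TTCNNGAA, which are each their own reverse complement and can overlap one another.

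P4HA1 (chr10:73096867-73097116, minus strand): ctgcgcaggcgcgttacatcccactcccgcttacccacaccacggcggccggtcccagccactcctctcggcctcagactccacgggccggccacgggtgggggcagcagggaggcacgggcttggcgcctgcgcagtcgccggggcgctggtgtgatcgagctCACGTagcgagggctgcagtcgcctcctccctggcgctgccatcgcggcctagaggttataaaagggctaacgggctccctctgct
P4HA2 (chr5:132227092-132227341, minus strand): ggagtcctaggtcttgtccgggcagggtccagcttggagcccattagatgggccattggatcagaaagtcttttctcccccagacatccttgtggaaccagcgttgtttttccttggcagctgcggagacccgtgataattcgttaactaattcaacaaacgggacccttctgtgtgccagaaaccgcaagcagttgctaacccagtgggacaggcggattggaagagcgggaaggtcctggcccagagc
PLOD2 (chr3:146161185-146161434, minus strand): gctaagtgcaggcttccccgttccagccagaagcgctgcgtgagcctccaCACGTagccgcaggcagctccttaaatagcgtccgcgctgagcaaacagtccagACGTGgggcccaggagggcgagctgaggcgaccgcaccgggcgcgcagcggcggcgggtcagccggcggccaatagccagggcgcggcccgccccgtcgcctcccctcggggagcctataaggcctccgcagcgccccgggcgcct
SERPINH1 (chr11:75562003-75562252, plus strand): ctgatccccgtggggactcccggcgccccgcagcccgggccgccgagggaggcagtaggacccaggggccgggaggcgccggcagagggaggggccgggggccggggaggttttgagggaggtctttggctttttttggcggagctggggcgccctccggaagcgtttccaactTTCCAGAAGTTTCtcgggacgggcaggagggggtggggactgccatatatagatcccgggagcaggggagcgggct

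The PLOD2 window holds ACGTG or its reverse complement CACGT at 2 places, starting 200 and 146 bases before the start site. The P4HA1 window holds CACGT at 1 place, 86 bases before. The P4HA2 window, at the first-listed start, holds neither form. Windows at any other start of a member were not read. COL6A2 and PLOD3 also rose, and their windows, not shown, hold no ACGTG, GAANNTTC or TTCNNGAA. SERPINH1 holds an overlapping pair, TTCNNGAA starting 76 bases before the start and GAANNTTC starting 71 bases before, which read together as 3 alternating units. Over 35116 human promoters of the same length, 18.5% hold ACGTG on either strand, 5.78% hold GAANNTTC and 6.62% hold TTCNNGAA. Those shares count every listed promoter, while each member is counted once, at its first-listed start. Of all 40 members with a sequence, 8 hold ACGTG, 5 hold GAANNTTC and 1 holds TTCNNGAA. Of the 9 members above background with a sequence, 2 hold ACGTG, 1 holds GAANNTTC and 1 holds TTCNNGAA. The ATF4-type element TGATGNAA, searched on both strands, is in 3.14% of all these promoters and in 0 of the 9. A match describes these letters only, and no binding was measured.

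Of the 5 lysyl oxidases 2 fell, LOXL1 and LOXL2, and the other 3 were at background level and did not pass. LOXL1, an oxidase known for elastic fibre assembly, read 8.24 and 8.14 under DMSO and 6.17 and 6.38 under zerumbone. Both zerumbone arrays lay below both DMSO arrays and remained above background. The fall was -1.91 ± 0.095 (SE, n = 2 per group; interval -2.16 to -1.67), or 3.76-fold, with a limma adjusted p of 1.56e-04.

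LOXL2, which acts on collagen IV among other substrates, read 7.14 and 7.11 under DMSO and 6.59 and 6.69 under zerumbone. It fell by 0.49 ± 0.067 (SE, n = 2 per group), or 1.40-fold, with a limma adjusted p of 0.00424. LOX, the founding member and also known as a hypoxia-induced gene in other cells, was at background level in both groups. It read 4.08 and 4.04 under DMSO and 3.91 and 3.93 under zerumbone, and did not pass (limma adjusted p 0.148). LOXL3 and LOXL4 lay between 3.52 and 4.16 on all arrays, also at background level.

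Among the chains, collagen VI was the one type with all the subunits of its classical trimer above background. Collagen VI forms beaded filaments in which the COL6A1, COL6A2 and COL6A3 chains are assembled together. COL6A1 read 9.07 and 9.11 under DMSO and 9.19 and 9.18 under zerumbone. The difference of 0.09 (interval -0.06 to 0.25) did not pass, with a limma adjusted p of 0.299.

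COL6A2 read 7.08 and 7.06 under DMSO and 7.67 and 7.71 under zerumbone. It rose by 0.62 ± 0.061 (SE, n = 2 per group), or 1.53-fold, with a limma adjusted p of 0.00127. COL6A3, whose long chain ends in the peptide endotrophin, read 7.62 and 7.72 under DMSO and 6.47 and 6.49 under zerumbone. It fell by 1.19 ± 0.069 (SE, n = 2 per group), or 2.29-fold, with a limma adjusted p of 2.38e-04. The subunits of 1 protein therefore included a riser, a faller and a gene that did not pass.

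Because the chains of collagen VI differed in direction, their log2 ratios were formed within each array. The ratio of COL6A3 to COL6A1 differed between the groups by -1.29, that of COL6A3 to COL6A2 by -1.81 and that of COL6A2 to COL6A1 by 0.52, with no overlap between the groups. The same was done for related enzymes, 7 ratios in all. The ratio of PLOD2 to PLOD1 differed by 1.07 and that of PLOD2 to PLOD3 by 0.86, and that of LOXL1 to LOXL2 by -1.42, again without overlap. The ratio of P4HA2 to P4HA1 differed by 0.12 and the groups overlapped (two-sided exact permutation p = 1). For each of the other 6 ratios the two-sided exact permutation p was 0.333, and 0.389 adjusted over the 7. With 2 arrays against 2, 0.333 is the smallest p this test can give, so the ratios could not pass a threshold of 0.05. The collagen VI pairs were formed from gene values already seen on these arrays, so their lack of overlap adds no support. How often other gene pairs separate was not computed.

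**Figure D2:**
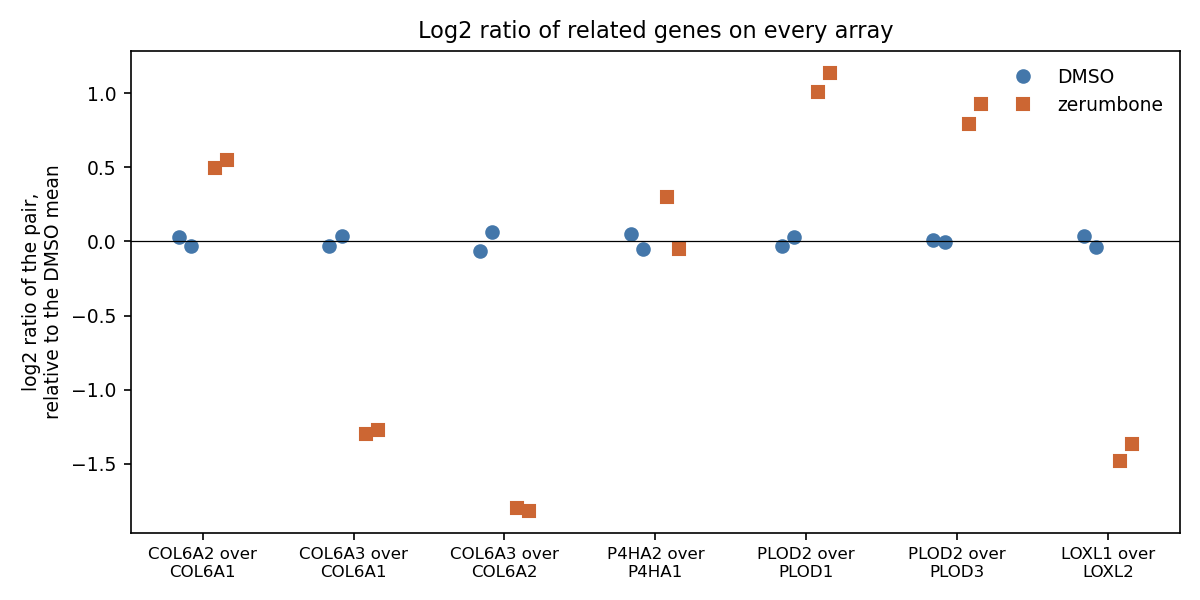
Log2 ratio of 7 pairs of related genes within each array, drawn relative to the mean of the DMSO arrays (y axis; circles, DMSO; squares, zerumbone). The ratio of P4HA2 to P4HA1 overlaps between the groups, and the other 6 do not.

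COL5A2, a chain of the minor fibrillar collagen V that regulates fibril width, read 5.88 and 5.97 under DMSO and 4.73 and 4.64 under zerumbone. Its zerumbone values were at background level, so the fall was at least 2.05-fold (the zerumbone background level stands in for the dimmer values), with a limma adjusted p of 2.38e-04. The partner chains of collagen V were at background level in both groups, COL5A1 between 3.45 and 3.61 and COL5A3 between 3.79 and 3.90 on the arrays.

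COL4A5, a collagen IV chain of some basement membranes, was above background on 1 DMSO array only. It read 4.64 and 4.65 under DMSO and 3.9996 and 3.97 under zerumbone, and it was called lower with a limma adjusted p of 9.75e-04. No size of change is given for it. COL18A1, the source of endostatin, read 4.74 and 4.72 under DMSO and 4.62 and 4.59 under zerumbone, and did not pass (limma adjusted p 0.186). COL27A1 read 4.55, 4.55, 4.55 and 4.54 in the same order and did not pass either (limma adjusted p 0.939). Its dimmer second row differed by -0.43, with 1 DMSO array apart from the other 3 arrays.

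The 34 chains at background level in both groups ranged from 3.27 to 4.63 over the arrays. They included the chains of collagen I, COL1A1 at 3.77 and 3.68 under DMSO and 3.76 and 3.75 under zerumbone, and COL1A2 at 3.77 and 3.73 under DMSO and 3.84 and 3.72 under zerumbone. The collagen IV chains COL4A1, COL4A2, COL4A3, COL4A4 and COL4A6 were among them, and so were all 10 measured fibril-associated chains (COL9A1, COL9A2, COL9A3, COL12A1, COL14A1, COL16A1, COL19A1, COL20A1, COL21A1 and COL22A1). The others were COL2A1, COL5A1, COL5A3, COL6A5, COL6A6, COL7A1, COL8A1, COL8A2, COL10A1, COL11A1, COL11A2, COL13A1, COL15A1, COL23A1, COL24A1, COL25A1 and COL28A1.

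These dim chains read slightly higher under zerumbone, with a positive difference for 33 of 34 and a median of 0.10. All 10978 genes at background level in both groups had a median of 0.08, and the antigenomic rows a median of 0.08 with 22 of 23 positive, so small positive differences at this level were shared with rows that match no human gene. Of the dim chains only COL10A1 passed (0.29, limma adjusted p 0.0316), where 7.02% of all genes at background level in both groups passed, 5.47% higher and 1.56% lower. Its call was lost whichever of the 4 arrays was left out (adjusted p from 0.0703 to 0.179).

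**Figure D3:**
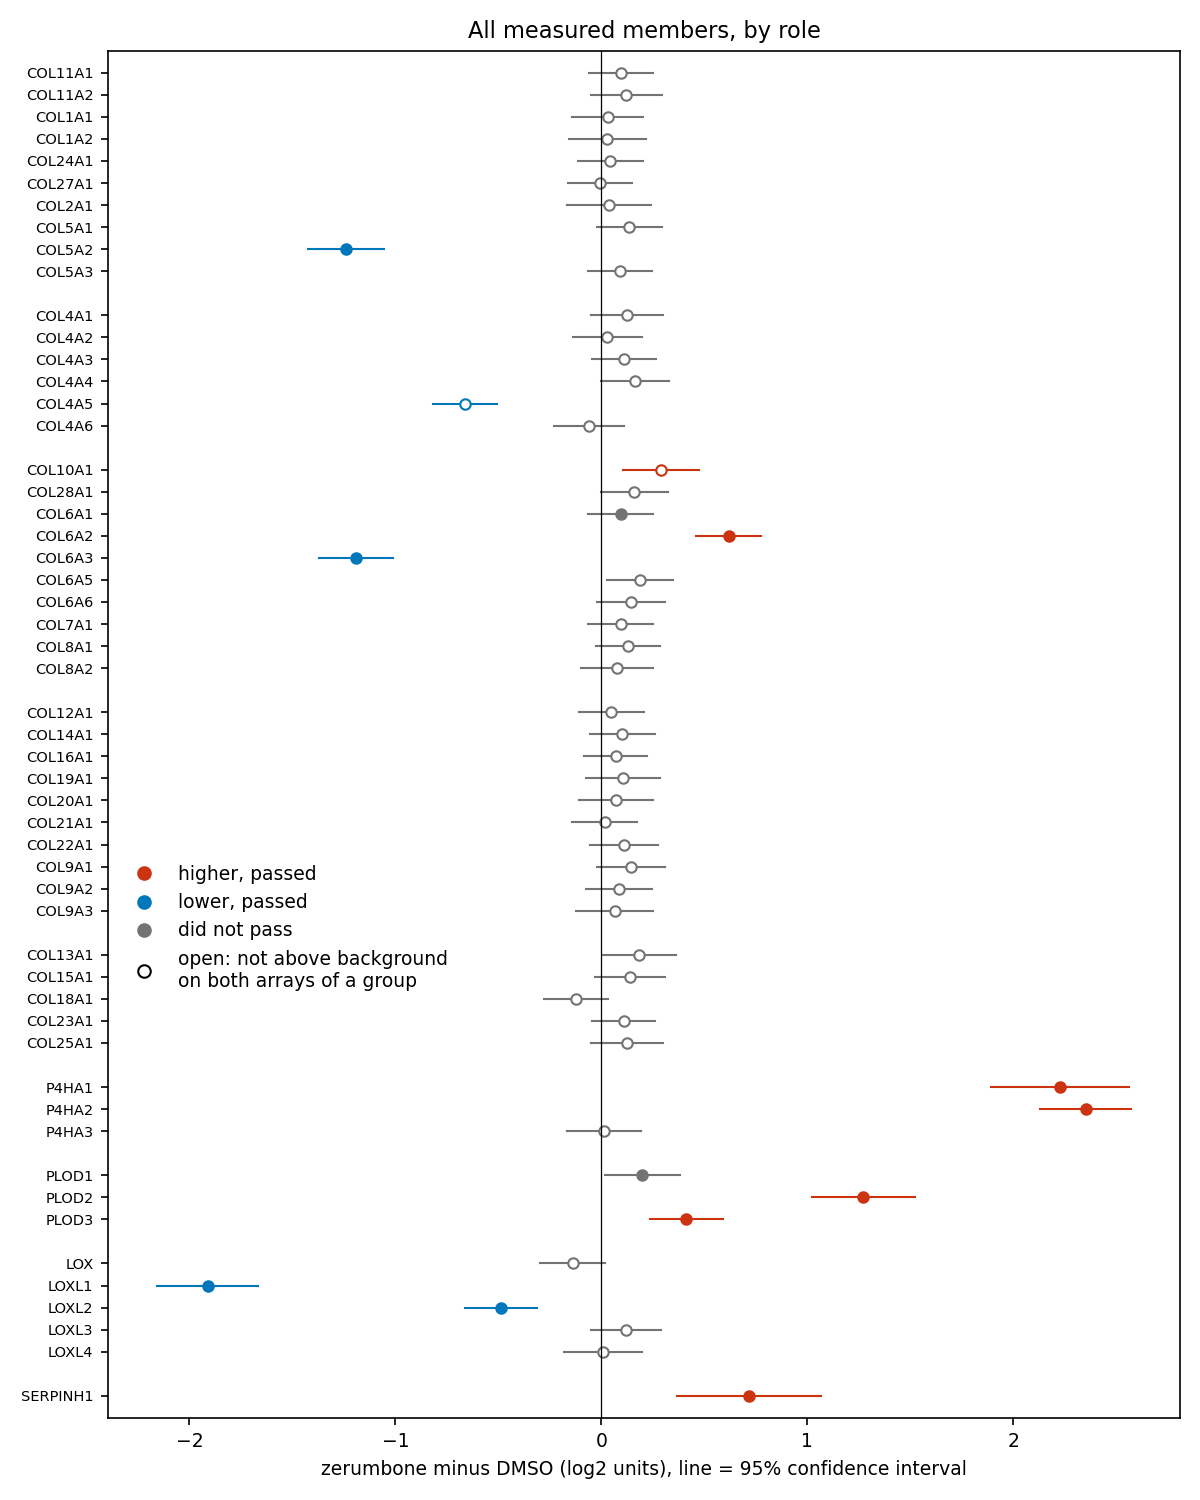
Difference between zerumbone and DMSO (x axis, log2 units) for all 53 measured members in order of role, with 95% confidence intervals from limma (red, higher and passed; blue, lower and passed; grey, did not pass; open, not above background on both arrays of a group). P4HA1, P4HA2 and PLOD2 stand furthest to the right and LOXL1, COL5A2 and COL6A3 furthest to the left, while the open symbols crowd just right of 0.

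Other genes that act on collagen were read from 6 lists with 74 members, of which 71 were measured. Of these, 14 rose, 24 fell and 33 did not pass, beside 18.4% of all genes higher and 17.7% lower. Of the 43 above background 12 rose and 21 fell, beside 32.9% higher and 34.5% lower of all genes above background. The number that rose was 8 without DMSO replicate 1, 7 without DMSO replicate 2 and 8 without zerumbone replicate 2, and 7 of the 14 were called whichever array was left out. The number of all genes higher also went down, from 4125 to 2557 without DMSO replicate 1 and 2687 without DMSO replicate 2.

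In the endoplasmic reticulum, 6 of 13 measured genes of hydroxylation, folding and sugar transfer fell and 1 rose, and 3 fell without DMSO replicate 1 or without DMSO replicate 2. FKBP10, a prolyl isomerase that works with the lysyl hydroxylases on collagen, went from 9.07 and 9.04 under DMSO to 7.97 and 7.98 under zerumbone, a difference of -1.08 (limma adjusted p 2.11e-04). CRTAP, a subunit of the prolyl 3-hydroxylase complex, fell by 0.89 (limma adjusted p 0.00149). TMEM38B, an ion channel of the endoplasmic reticulum needed for normal collagen folding, rose by 0.79 (limma adjusted p 0.0218), and that call was lost without DMSO replicate 2 or without zerumbone replicate 2. The median of this list was -0.19. Of its 11 genes above background 6 fell and 1 rose, beside 34.5% lower and 32.9% higher of all genes above background.

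Of 13 genes of procollagen export, 8 rose and 4 fell, all of them above background, where 32.9% of genes were higher and 34.5% lower. The number that rose was 4 without DMSO replicate 1, without DMSO replicate 2 or without zerumbone replicate 2, and 7 without zerumbone replicate 1. SEC24D, a cargo adaptor of the COPII coat that large procollagens need, went from 7.96 and 7.93 to 9.68 and 9.60, a 3.24-fold rise (limma adjusted p 8.4e-05). SEC31A, SAR1A and MIA2, also of the export machinery, rose by 1.03, 0.73 and 0.51, and these 3 and SEC24D were called whichever array was left out. MIA3 (0.29), SEC13 (0.29) and SAR1B (0.26) rose too, as did TRAPPC2, which was above background on 1 DMSO array only and is given no size. The call of MIA3 was lost whichever array was left out, and those of SEC13, SAR1B and TRAPPC2 in 3 of the 4 cases. The falls were in CREB3L2 (-1.58) and CREB3L1, transcription factors that drive secretory genes, VPS33B (-1.51), a trafficking protein that delivers PLOD3, and KLHL12 (-0.27), a ubiquitin ligase adaptor that enlarges COPII carriers. KLHL12 passed in none of the fits on 3 arrays. CREB3L1 was above background on both DMSO arrays and on 1 zerumbone array, so no size is given.

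Of 11 genes of propeptide removal, FURIN, a protease that activates procollagen-processing enzymes, rose by 1.21 (limma adjusted p 1.51e-04), and MEP1A was called higher at background level, a call lost whichever array was left out. BMP1, the main procollagen C-proteinase, differed by -0.13 without passing and is named after its values were seen. Of 11 receptors 3 rose and 3 fell, and 1 fell without DMSO replicate 1 or without DMSO replicate 2. ITGA2, a collagen-binding integrin subunit, rose by 0.87 (limma adjusted p 5.54e-04) and CD44 by 0.33, while DDR1, a collagen-activated kinase, fell by 0.46 (limma adjusted p 0.0368), and the calls of CD44 and DDR1 were each lost without DMSO replicate 1 and without DMSO replicate 2. GP6 was called higher and ITGA11 lower at background level in both groups, and ITGA1 was called lower with a group above background on 1 array only. Of the 4 receptors above background 2 rose and 1 fell, beside 32.9% higher and 34.5% lower of all genes above background.

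Of 14 fibril and matrix organisers 7 fell and 0 rose in limma (0 higher at an unadjusted p under 0.05). All 7 that did not pass were at background level in both groups. The 6 organisers above background all fell, beside 34.5% lower of all genes above background. The other one called lower, DCN, was above background on 1 DMSO array only and is given no size. FBN1, the microfibril protein fibrillin, went from 8.37 and 8.45 to 5.80 and 6.003, a 5.67-fold fall (limma adjusted p 8e-05). AGRN (-1.66) and NID1 (-1.45), of basement membranes, fell as well. Of 9 measured genes of proline and glycine supply and ascorbate uptake 4 fell and 0 rose in limma (0 higher at an unadjusted p under 0.05). These included SHMT1 at -0.95, ALDH18A1, the first enzyme of proline synthesis, at -0.91 and SHMT2 at -0.59. All 4 were among the 6 genes of this list above background, beside 34.5% lower and 32.9% higher of all genes above background.

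**Figure D4:**
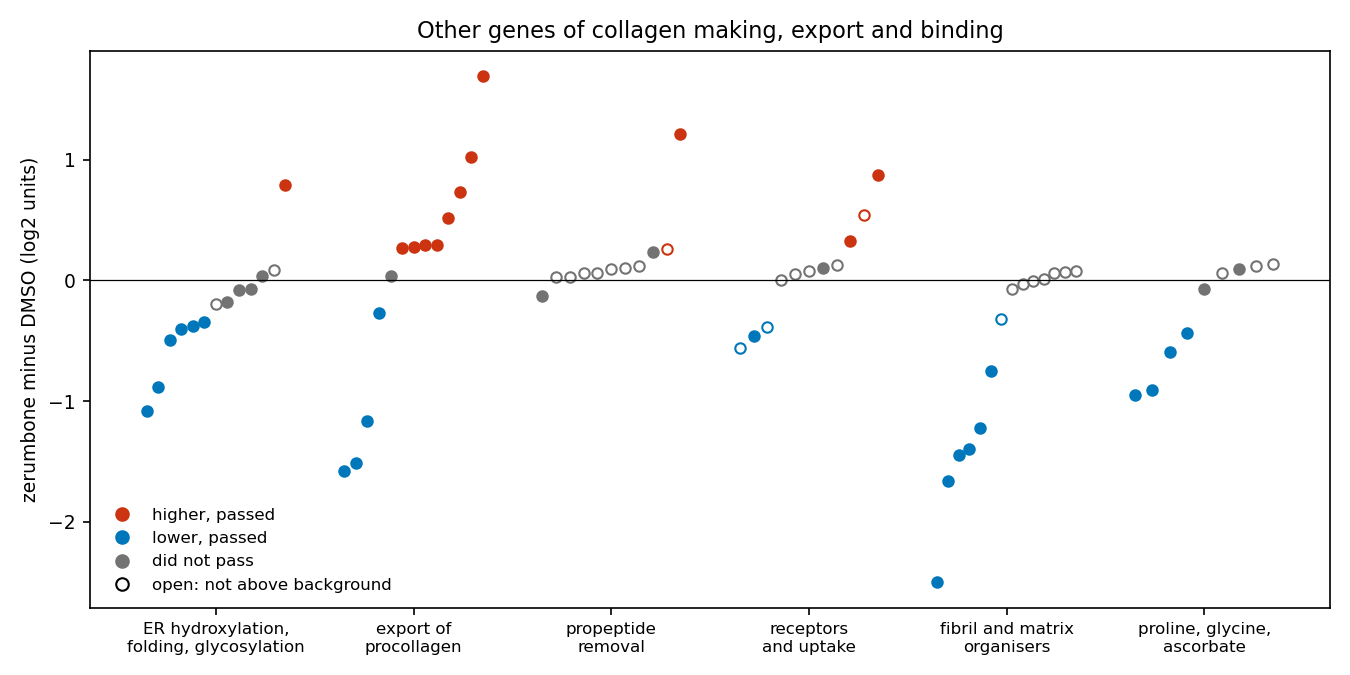
Difference between zerumbone and DMSO (y axis, log2 units) for 71 other genes of collagen making, export and binding, in 6 groups along the x axis and in order of size within each (red, higher and passed; blue, lower and passed; grey, did not pass; open, not above background on both arrays of a group). The export group spans from CREB3L2 at -1.58 to SEC24D at 1.69, and the organisers fall to FBN1 at -2.50.

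Markers of the cell types that could carry collagen were read beside these results. Of 10 fibroblast and stellate markers, 7 were at background level in both groups, among them PDGFRA, PDGFRB, THY1 and ACTA2. LUM (-1.22) fell and RGS5 rose. DCN was called lower with a group above background on 1 array only (a call lost whichever array was left out). The sum of the 10 markers on the linear scale was 238.5 and 254.3 under DMSO and 192 and 190.1 under zerumbone. LUM was the brightest marker and 7 of the 10 entered the sum at background level, so the sum does not describe the markers as a set. Both groups were cells of the same line, so these marker values are read as RNA of that line. Whether any other cells were present was not tested. Of 6 endothelial markers 5 were at background level. Their summed value was 296.7 and 317 under DMSO, most of it KDR, and 127.4 and 132.5 under zerumbone. Of 5 leukocyte markers 4 were at background level, with a summed value of 12690 and 12220 against 23770 and 23520, most of it CD68.

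Of 8 measured hepatocyte markers none was above background on both arrays of a group, so the labelled origin does not show in ALB, AFP or APOA1. Of 5 epithelial markers 4 fell, among them the bright keratins KRT8 and KRT18, and EPCAM was at background level in both groups. All 4 that fell were above background, where 34.5% of all genes were lower. In bulk RNA, fewer cells of the line expressing a gene and less of its RNA per cell cannot be told apart. Since titles number the DMSO arrays before the zerumbone ones, a processing order that followed them and the treatment cannot be told apart.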

How the data were processed

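Per the submitters' processing notes, the authors made the deposited log2 values with RMA in the Affymetrix Expression Console, with versions and genome build not given in the sources used here. Values reach 19.93, above a 16-bit scanner's range, and whether a further step followed was not tested. Of 70523 rows, 67528 are transcript clusters, and 23781 of them carry 1 symbol. The row with the highest mean was kept for each of 22465 genes. COL11A2, COL27A1 and P4HA3 had several rows.

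The fit used limma 3.58.1 (lmFit, then eBayes; R 4.3.3) on all 4 arrays with two-sided tests (2 residual and 2.88 prior degrees of freedom), with Benjamini-Hochberg adjustment over all genes, and the steps were tested on simulated data. Named genes are all members above background on both arrays of a group and, of each further list, the 3 called genes with the largest change and those opposed to them. The members and lists were chosen with earlier results of these data known. Motifs were searched in RefSeq promoters of GRCh38.p14, for each member at its first-listed start. Plots used matplotlib 3.10.9 and Python 3.11.15. Alternatives covered scaling, row choice, genes tested, dim genes, the prior and each array left out.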

Additional observations from a re-analysis of the deposited data

Results flagged for a closer look

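The antigenomic background rows, which match no human gene and enter no comparison of genes, were higher under zerumbone by a median of 0.0785 log2 units, with 22 of 23 rows positive. They lie outside the gene comparison and are the rows by which 38 of the 53 members were placed at background level.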

How the results depend on the processing

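All 14 members that were above background or called kept their direction under every alternative run. Of 152 values under alternatives, 142 kept their side of the threshold and 10 fell short of it. These were 7 of COL10A1, 2 of PLOD3 (0.40 and 0.43) and 1 of SERPINH1 (0.62). Collagen chains called higher went from 2 to 1 with cyclic loess, with each array centred on its median over all transcript clusters (a setting chosen after seeing the data), with all transcript clusters tested and with dim genes left out, and also 1 without each single array. COL10A1 was left out with the dim genes and lost its call in the other settings named. Enzymes called higher ranged from 3 to 5 without single arrays, and the same holds for those above background. Partner genes called higher were 14, and 7 with all transcript clusters, 9 with the cluster-median centring and 7 to 13 without single arrays. All genes called higher were 4125, and 2557 to 3822 without single arrays. Partner genes called lower were 24, and 19 with all transcript clusters and 26 with the cluster-median centring. Over all genes, the share of calls that were higher was 51.0%, and 41.0% with the cluster-median centring. Members at background level numbered 38, and 37 or 41 with the 90th or 99th percentile. No paired analysis was possible because the labels carry no replicate numbers, and those used here only name the arrays in the order of deposit. Detection is limited by the background level, under which 38 members have no measured size of change.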
